A study of Saccharomyces cerevisiae with 4 samples.

Results

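The RNA that carries few or no ribosomes in budding yeast (Saccharomyces cerevisiae) was compared between cells treated with dithiothreitol (DTT) and control cells. The members are the arrays whose titles give DTT-treated or control cells and the sub-polysomal fraction, 2 of the 4 arrays of the series, and the genes measured on both, 4124 of 5656 genes that have a probe set of their own. Both groups were cultures of strain BY4741, labelled as mating type a with his3Δ1, leu2Δ0, met5Δ0 and ura3Δ0. They grew in rich glucose medium at pH 5.4 and 30 °C to an OD600 of 0.5. The DTT group then received 2 mM DTT for 1 h, and the control group received the same volume of water (0 mM DTT). Cycloheximide at 0.1 mg/mL stalled the ribosomes in both groups, and lysates were spun through sucrose gradients of 15 to 60%. Lysis and gradient buffers held 0.5 mM DTT for both groups. Fractions were joined by their absorbance profile, RNA of 3 extracts per group was pooled, and the label reaction for each array took 5 µg. With 1 array a group there is no spread between replicates and no test, so every difference below is a difference between these arrays. The number of arrays limits the precision of each value.

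DTT is a reductant that crosses membranes and breaks disulphide bonds, so that secretory proteins misfold in the endoplasmic reticulum (ER). In yeast the ER membrane protein Ire1 senses this and splices HAC1 mRNA, whose unspliced form is held back from translation, and the Hac1 factor then raises transcription of ER chaperones and of genes for secretion. This is the unfolded protein response. In a sucrose gradient, free mRNA, mRNA in ribonucleoprotein particles and mRNA with few ribosomes stay above the polysomes, together with small RNAs and ribosomal subunits. A value from that pool cannot tell apart a change in the amount of a transcript in the cell and a change in the part of it that lies outside polysomes.

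Values are intensities as deposited, the DTT array first. For a gene with several probe sets the intensity is their mean, and the log2 ratio is the mean of their log2 ratios. Such a log2 ratio can differ from that of the intensities printed, also in direction. The log2 ratio of DTT to control was taken after subtracting the median log2 intensity of the measured probe sets from each array, which takes 0.09 off the log2 ratio of the plain intensities. Measured probe sets are those past the 40th percentile of each array, which was 22.6 with DTT and 28.2 in control cells. ISM1, at 22.7 with DTT, lay just inside the first limit and GPI15, at 22.6, just outside it. PRP22, at 28.3 in control cells, lay just inside the second limit and RDR1, at 28.2, just outside it. As a yardstick, probe sets of the same gene differed with a pooled SD of 0.46 on the log2 scale over 174 genes and 437 probe sets. That SD holds no difference between cultures, extracts or hybridisations.

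The arrays differed in more than single genes. The median intensity was 36.7 with DTT and 40.5 in control cells, and the brightest probe set read 4855 with DTT (RPS22A) and 17315 in control cells (RPL36A). Of all signal, 20.0% with DTT and 32.8% in control cells came from the 100 brightest probe sets. For actin, signal at the 3' end was 1.91 times that at the 5' end with DTT and 2.49 times in control cells, and for SPT15 this ratio was 4.83 with DTT and 4.41 in control cells. The brightest of 10 control probe sets for ribosomal RNA read 14.4 with DTT and 460.1 in control cells. The second brightest read 3.3 with DTT and 23.2 in control cells, each under the 40th percentile of its array. Wash module and scan differed between the arrays as the groups did, so the effect of the run and that of DTT cannot be told apart. The rank correlation of the arrays was 0.912 over all 9335 probe sets, controls and those under the 40th percentile included. These probe sets share a scanner and a strain.

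Of the markers of mating type a, MFA2, STE2, STE6, BAR1, AGA2 and both probe sets of MFA1 were above the floor on both arrays. Of the alpha markers, MF(ALPHA)1, MF(ALPHA)2 and STE3 were under it on both arrays, while the alpha-agglutinin gene SAG1 read 64.1 with DTT and 50.2 in control cells (log2 ratio 0.26). Among the genes the labels give as deleted, URA3 read 0.3 with DTT and 1.2 in control cells. The brightest of 3 probe sets of LEU2 read 6.6 with DTT and 17.6 in control cells. MET5, also labelled as deleted, read 166 with DTT and 184 in control cells, whereas MET17, which the labels do not list as deleted, read 0.4 with DTT and 2.9 in control cells. The readout of these genes therefore goes against the label met5Δ0. HIS3 had 182.7 and 46.5 on its probe sets with DTT and 186.1 and 48.1 in control cells. The his3Δ1 allele lacks only part of the gene, and where the probe sets lie relative to it is not known here, so they check nothing.

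Over the 4124 genes, 232 were at least 2-fold higher with DTT (5.63%) and 438 at least 2-fold lower (10.6%), and 3454 lay within 2-fold. A ratio of at least 4-fold was reached by 38 genes in the higher direction and 17 in the lower. The median gene stood at -0.20 and the middle 50% of genes lay between -0.63 and 0.26, so a gene list whose median is -0.20 is like the genes at large. The log2 ratio moved with signal level. With the genes in 10 equal bins from dim to bright, its median was -0.35 in the first bin, between -0.17 and -0.08 in the fifth to the ninth bin, and -0.47 in the brightest bin, where 14 genes were at least 2-fold higher and 102 at least 2-fold lower. Removing that trend by loess scaling gave 317 genes higher and 230 lower, and quantile scaling gave 272 higher and 309 lower. Centring on the measured genes gave 357 higher and 226 lower, the intensities as the authors scaled them gave 275 higher and 320 lower, and leaving out the floor gave 634 higher and 562 lower. Counts below use the median-centred values, and the scaled values stand beside them for bright genes.

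**Figure D1:**
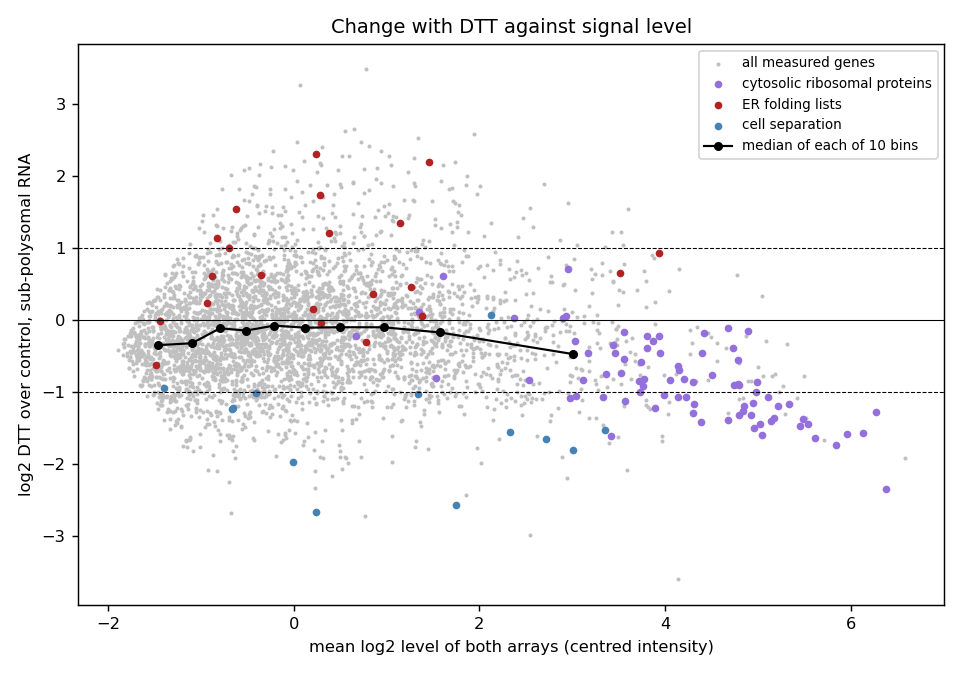
Log2 ratio of DTT to control in sub-polysomal RNA (vertical axis) against the mean log2 level of both arrays (horizontal axis), 1 point a gene for 4124 genes, with dashed lines at 2-fold. The black line joins the medians of 10 equal bins of genes and ends at -0.47 in the brightest bin, where most ribosomal protein genes (purple) lie, while ER folding genes (red) lie mostly above it and cell separation genes (blue) mostly below.

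Among genes whose measured probe sets were all above the array medians, the highest ratio belonged to DIA1, named for its part in invasive growth into agar. It read 561 with DTT and 47.4 in control cells (log2 ratio 3.48), an 11.1-fold difference. CMK2, a calmodulin-dependent protein kinase, read 384 with DTT and 57.5 in control cells (log2 ratio 2.65). CRH1, an enzyme that links chitin to glucan in the cell wall, read 921 with DTT and 144 in control cells (log2 ratio 2.59). PRM5, a membrane protein whose gene answers to the cell integrity pathway, read 381 with DTT and 64.7 in control cells (log2 ratio 2.47), and SLT2, the MAP kinase of that pathway, read 325 with DTT and 63.3 in control cells (log2 ratio 2.27). RCR1, an ER membrane protein that affects chitin deposition, read 279 with DTT and 49.5 in control cells (log2 ratio 2.41). GPI16, a subunit of the transamidase that attaches GPI anchors, read 425 with DTT and 78.5 in control cells (log2 ratio 2.35). FPR2, a proline isomerase of the ER, read 256 with DTT and 48.9 in control cells (log2 ratio 2.30), and OPI3, a methyltransferase of phosphatidylcholine synthesis, read 438 with DTT and 84.8 in control cells (log2 ratio 2.28).

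The vacuolar protease gene PRB1 read 525 with DTT and 104 in control cells (log2 ratio 2.24) and YHR138C, whose product resembles a protease inhibitor of the vacuole, read 309 with DTT and 59.9 in control cells (log2 ratio 2.28). NFG1, a negative regulator of filamentous growth, read 594 with DTT and 97.1 in control cells (log2 ratio 2.52), and ARA1, an arabinose dehydrogenase, read 228 with DTT and 46.3 in control cells (log2 ratio 2.21). The remaining genes among the 15 rest on probe sets that may read several loci. COS8, of a subtelomeric membrane protein family, had 1 of 3 probe sets above both floors, at 356 with DTT and 54.6 in control cells (log2 ratio 2.62). Its other probe sets read 178.5 and 93.1 with DTT and 15.3 each in control cells, under the control floor. YER138W-A is read by a family probe set, a design of the maker for sequences shared by several genes, and had 396 with DTT and 69.6 in control cells (log2 ratio 2.42).

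The lowest ratio belonged to MFA2, one of the genes for the pheromone a-factor. It read 494 with DTT and 5646 in control cells (log2 ratio -3.60), 12.1-fold lower with DTT, and stayed at -3.01 with quantile and -2.94 with loess scaling. NCE102, a membrane organiser of the eisosome, read 204 with DTT and 1520.3 in control cells (log2 ratio -2.99). INA1 read 64.9 with DTT and 402 in control cells (log2 ratio -2.72). PRY3, a wall protein of daughter cells, read 45.9 with DTT and 274 in control cells (log2 ratio -2.67), and EGT2, which acts in cell separation after cytokinesis, read 134 with DTT and 754 in control cells (log2 ratio -2.58). Other wall genes among the 15 lowest were the mannoprotein genes TIR4, at 55.6 with DTT and 223 in control cells (log2 ratio -2.09), and TIP1, at 573 with DTT and 2294 in control cells (log2 ratio -2.09), which was -1.58 with loess scaling. NIS1, a protein of the bud neck, read 68.6 with DTT and 271 in control cells (log2 ratio -2.07).

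The remaining low genes spanned transport, metabolism and transcription. HXT6, a high-affinity hexose transporter read by a family probe set that its near-identical neighbour HXT7 may share, had 153 with DTT and 772 in control cells (log2 ratio -2.43). NDE1, the external NADH dehydrogenase of mitochondria, read 352 with DTT and 1519.8 in control cells (log2 ratio -2.20). The transcription factor genes CIN5 and HMS2 read 51.2 with DTT and 244 in control cells (log2 ratio -2.34) and 61.8 with DTT and 260.4 in control cells (log2 ratio -2.16). RNR1, the large subunit of ribonucleotide reductase, read 199 with DTT and 739.6 in control cells (log2 ratio -1.98). RRN5, part of a factor for RNA polymerase I, rests on 1 of 3 probe sets, at 73.6 with DTT and 275 in control cells (log2 ratio -1.99), and stood at -1.29 when all its probe sets were used without a floor. RPL36A, a ribosomal protein gene, read 3623 with DTT and 17315 in control cells (log2 ratio -2.35). It was the brightest probe set of the control array, and its ratio was -0.62 with quantile and -1.02 with loess scaling.

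**Figure D2:**
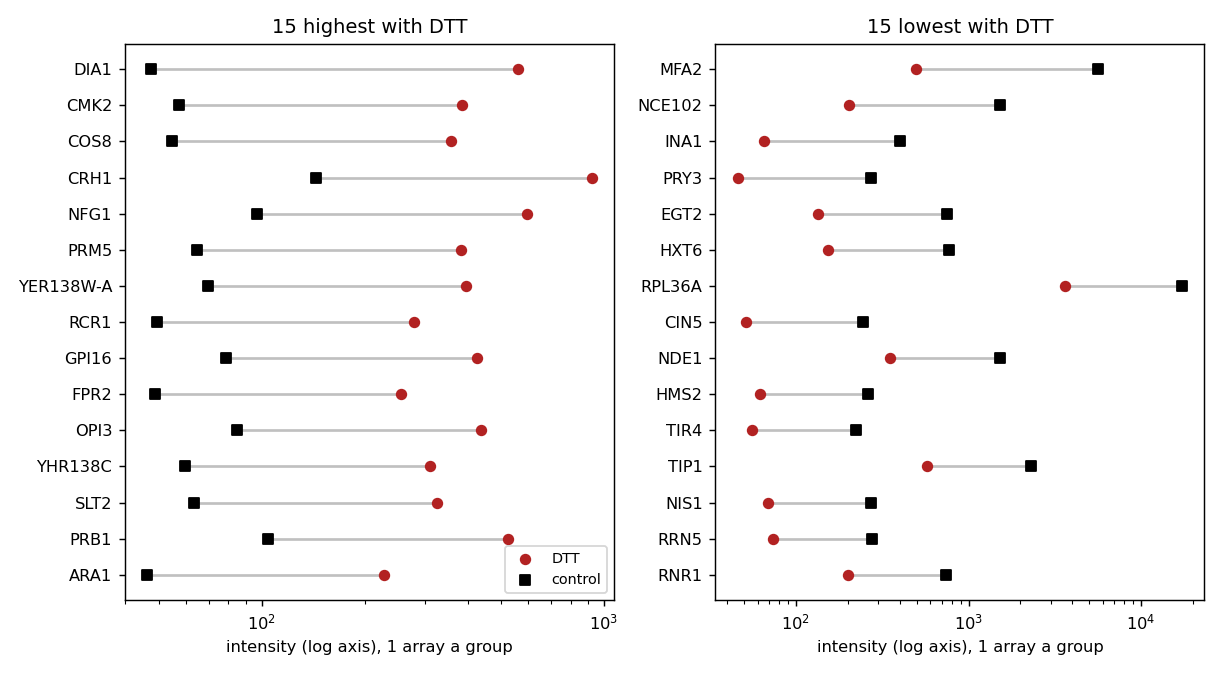
Intensity on a log axis of the 15 genes with the highest and the 15 with the lowest log2 ratio among genes above the array medians, with DTT (red circles) and control (black squares), 1 array a group. DIA1 stands at the top of the high genes with 561 against 47.4, and MFA2 at the top of the low genes with 494 against 5646.

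Genes for protein folding in the ER lay above the genes at large. The Hsp70 system of the ER lumen had a median log2 ratio of 0.97 over 6 measured genes, against -0.20 for all genes. All 6 lay above the all-gene median, 3 were at least 2-fold higher and 0 lower. SIL1 and LHS1, both nucleotide exchange factors of the chaperone Kar2, read 575 with DTT and 118 in control cells (log2 ratio 2.19) and 217 with DTT and 61.5 in control cells (log2 ratio 1.73). JEM1, a J-domain partner of Kar2, read 85.6 with DTT and 40.2 in control cells (log2 ratio 1.00). KAR2 itself, the ER Hsp70, read 2068 with DTT and 1018 in control cells (log2 ratio 0.93), just under 2-fold. At that brightness the scaling mattered, and its ratio was 1.47 with quantile and 1.54 with loess scaling. The smallest difference of the group was that of SCJ1, another J-domain partner, at 275 with DTT and 189 in control cells (log2 ratio 0.45). ERJ5 was under the floor on the control array, at 31.5 with DTT and 23.8 in control cells.

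The enzymes of disulphide formation, the step that DTT opposes, had a median of 0.64 over 6 genes, with 2 at least 2-fold higher and 0 lower. EUG1, a relative of protein disulphide isomerase, read 109 with DTT and 35.1 in control cells (log2 ratio 1.54). ERO1, the oxidase that feeds oxidising power into the ER, read 193 with DTT and 78.9 in control cells (log2 ratio 1.21). PDI1, the main disulphide isomerase, read 1405 with DTT and 839 in control cells (log2 ratio 0.66), which was 1.14 with loess scaling. MPD1, another isomerase of the family, read 139.5 with DTT and 13.5 in control cells. The control value lies under the floor and allows only a bound, at least 4.65-fold higher with DTT. ERV2, a second ER thiol oxidase, read 118 with DTT and 115 in control cells (log2 ratio -0.05), and its sign turned positive with no centring, with centring on the genes and with centring on hybridisation controls.

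Proline isomerases, calnexin and the glycan-trimming enzymes had a median of 0.23 over 9 genes, with 3 at least 2-fold higher. Besides FPR2 these were CPR5, an ER cyclophilin, at 346 with DTT and 128 in control cells (log2 ratio 1.35), and CWH41, the glucosidase that trims the first glucose from N-glycans, at 82.3 with DTT and 35.1 in control cells (log2 ratio 1.14). At the other end CNE1, the yeast calnexin, read 28.2 with DTT and 40.9 in control cells (log2 ratio -0.62).

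HAC1, the transcription factor of the response, had 4 of 5 probe sets above both floors, with log2 ratios of 2.29, 1.64, 1.31 and 1.09 and a mean of 1.58. The first read 220.8 with DTT and 42.4 in control cells, and the second 641 with DTT and 193.4 in control cells. The third read 423.1 with DTT and 160.8 in control cells, and the fourth 206.2 with DTT and 91.4 in control cells. All 4 were higher with DTT by at least 2-fold. The first is the only plain probe set among them, and the fifth read 3.2 with DTT and 1.2 in control cells. Which part of the HAC1 transcript each reads is not known here. The sensor gene IRE1 read 21.7 with DTT and 25.3 in control cells, under both floors. INO1, the inositol-1-phosphate synthase gene and a classical reporter of inositol regulation, read 31.1 with DTT and 4.3 in control cells, above the floor with DTT only. GCN4, the activator of amino acid synthesis, whose leader holds upstream reading frames, read 1122 with DTT and 1257 in control cells (log2 ratio -0.25), and its sign turned to 0.07 with quantile and 0.27 with loess scaling. The phosphatase gene PTC2 had a log2 ratio of 0.35. Over the 4 measured genes of ER stress signalling, SLT2 included, the median was 0.97 and 2 were at least 2-fold higher. That median turned with the floor, to -0.18 over 7 genes at the 20th percentile and 0.28 over 8 genes with none, so the list has no settled direction.

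**Figure D3:**
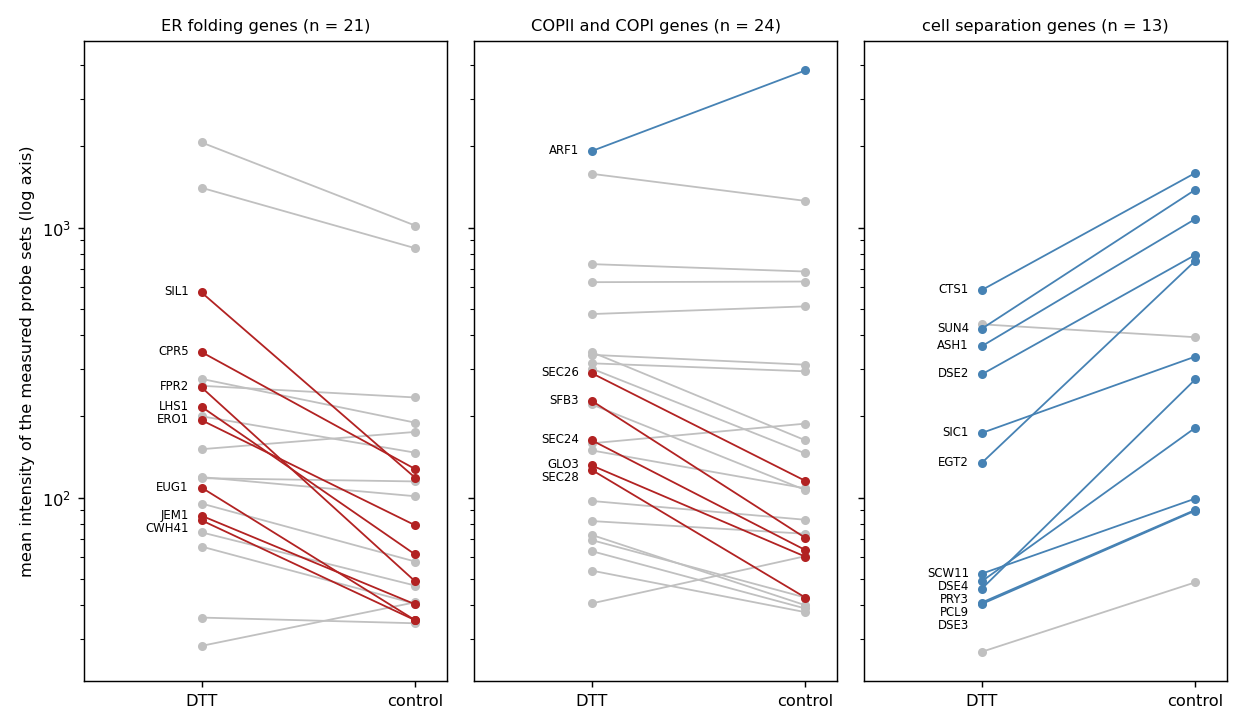
Mean intensity of the measured probe sets on a log axis with DTT (left) and in control cells (right), 1 line a gene, for ER folding genes (n = 21), COPII and COPI genes (n = 24) and cell separation genes (n = 13). Red lines are at least 2-fold higher with DTT, blue lines at least 2-fold lower and grey lines within 2-fold. All 8 called ER folding genes are higher with DTT and all 11 called cell separation genes are lower.

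Genes for degradation of ER proteins had a median of 0.24 over 22 genes. The 2 at least 2-fold higher were DFM1, a derlin-family membrane protein, at 379 with DTT and 165 in control cells (log2 ratio 1.12), and SSM4, a ubiquitin ligase of the ER membrane, at 142 with DTT and 64.6 in control cells (log2 ratio 1.05). HRD1, the ligase for lumenal and membrane substrates, read 136 with DTT and 68.3 in control cells (log2 ratio 0.90). None of the 22 was 2-fold lower, and the lowest was the ubiquitin receptor gene DSK2 at -0.49. ER translocation had a median of 0.27 over 18 genes. SBH1, the small beta subunit of the Sec61 channel, read 330.1 with DTT and 112 in control cells (log2 ratio 1.48), and SEC72, of the complex for post-translational import, read 95.1 with DTT and 41.1 in control cells (log2 ratio 1.12). SEC61 itself, the channel, read 998 with DTT and 1126 in control cells (log2 ratio -0.26), and SND1, of an alternative targeting route, was lowest at -0.69. Targeting by the signal recognition particle and signal peptidase had a median of -0.16, close to that of all genes, with only SEC11, the catalytic peptidase subunit, 2-fold higher, at 101 with DTT and 40 in control cells (log2 ratio 1.25). SRP21, a subunit of the particle, was lowest at -0.98.

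Genes for sugar transfer, its precursors and GPI anchors are given by list, beside shares over all genes of 5.63% at least 2-fold higher and 10.6% lower. Oligosaccharyltransferase, the enzyme that attaches N-glycans, had a median of 0.16 over 9 subunit genes, 1 at least 2-fold higher and 1 lower. OST6, a subunit with a thioredoxin-like fold, read 199.8 with DTT and 92.4 in control cells (log2 ratio 1.02), while OST4, its smallest subunit, read 1085 with DTT and 2255 in control cells (log2 ratio -1.14), or -0.50 with loess scaling. Synthesis of the N-glycan precursor had a median of 0.12 over 22 genes, 2 at least 2-fold higher and 1 lower. The members at least 2-fold higher make sugar precursors, GFA1 for glucosamine at 425 with DTT and 128 in control cells (log2 ratio 1.65) and PMI40 for mannose phosphate at 677 with DTT and 252 in control cells (log2 ratio 1.34). ALG11, a mannosyltransferase of the lipid-linked glycan, was lower, at 137 with DTT and 288 in control cells (log2 ratio -1.16). The list named for O-mannosylation, the attachment of mannose to serine and threonine, also holds other mannosyltransferase genes. It had a median of 0.19 with 4 of 19 genes at least 2-fold higher and 0 lower. These were the mannosyltransferase genes KTR2, at 320.2 with DTT and 86.1 in control cells (log2 ratio 1.81), PMT3, at 219.7 with DTT and 63.3 in control cells (log2 ratio 1.71), KTR1, at 498 with DTT and 186 in control cells (log2 ratio 1.33), and YUR1, at 206 with DTT and 92.8 in control cells (log2 ratio 1.07). MNN5 was lowest, with a log2 ratio of -0.76. GPI anchor synthesis had a median of 0.28 with 4 of 18 higher and 0 lower. Besides GPI16 these were MCD4, which adds phosphoethanolamine to the anchor, at 749 with DTT and 194 in control cells (log2 ratio 1.86), GWT1, which acylates its inositol, at 251 with DTT and 96.6 in control cells (log2 ratio 1.29), and PER1, which remodels its lipid, at 204 with DTT and 82.5 in control cells (log2 ratio 1.21). GPI12 was lowest at -0.42.

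Coat proteins of both directions of ER to Golgi traffic had medians above that of all genes. The COPI coat and its Arf GTPases, which return material to the ER, had a median of 0.54 over 14 genes, with 3 at least 2-fold higher and 1 lower. The coat subunit genes SEC28 and SEC26 read 127 with DTT and 42.6 in control cells (log2 ratio 1.48) and 289 with DTT and 115 in control cells (log2 ratio 1.24), and GLO3, an Arf-activating protein for the coat, read 132 with DTT and 60.4 in control cells (log2 ratio 1.03). ARF1, the GTPase itself, ran the other way at 1921 with DTT and 3823 in control cells (log2 ratio -1.08), but stood at -0.27 with quantile and -0.21 with loess scaling. The COPII coat, which carries cargo out of the ER, had a median of 0.28 over 10 genes. SFB3 and SEC24, which select cargo, read 228 with DTT and 70.9 in control cells (log2 ratio 1.60) and 163 with DTT and 63.9 in control cells (log2 ratio 1.26), whereas SED4 was lowest at -0.33. Cargo receptors of the p24 and Erv families had a median of 0.03 over 16 genes. ERV29, the receptor for soluble cargo, read 139 with DTT and 36.1 in control cells (log2 ratio 1.86), EMP47, a lectin-like receptor, read 119 with DTT and 52.4 in control cells (log2 ratio 1.09), and ERP4, a p24 protein, was lower at 26.1 with DTT and 59.1 in control cells (log2 ratio -1.27). For the last step of secretion, the exocyst and the SNAREs of the plasma membrane, the median was -0.15 and 0 of 12 genes passed 2-fold in either direction. SSO1, a t-SNARE, was highest at 0.54 and SSO2 lowest at -0.85. SEC6, an exocyst subunit, read 138.2 with DTT and 27.7 in control cells, under the control floor, a bound of at least 4.61-fold.

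Signalling to the cell wall had few large differences besides that of SLT2. The 18 measured genes of the cell integrity pathway had a median of 0.02, and BEM2, which turns off Rho1, was the other gene at least 2-fold higher, at 218 with DTT and 73.5 in control cells (log2 ratio 1.48). MKK2, the kinase that activates Slt2, was lowest at -0.88. Wall genes split into both directions, 5 of 38 at least 2-fold higher and 13 at least 2-fold lower, with a median of -0.34 that was 0 to the second decimal with loess scaling, where 7 were lower. Higher besides CRH1 were GSC2, the inducible glucan synthase, at 299 with DTT and 65.5 in control cells (log2 ratio 2.08), and the GPI-anchored protease genes YPS3, at 588 with DTT and 156 in control cells (log2 ratio 1.82), and YPS1, at 978 with DTT and 314 in control cells (log2 ratio 1.55). CHS7, which lets chitin synthase leave the ER, read 312 with DTT and 102 in control cells (log2 ratio 1.53). GSC2 stood at 1.44 with the floor at the 20th percentile, where more of its probe sets count. Lower, after TIR4 and TIP1, were the mannoprotein gene CCW12, at 4825 with DTT and 17217 in control cells (log2 ratio -1.92), and GAS3, a glucan-remodelling enzyme of the GAS family, at 209 with DTT and 671 in control cells (log2 ratio -1.77). CCW12 was -0.53 with loess scaling, and with quantile scaling it was level on both arrays.

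Cell separation was the list with the lowest median, -1.53 over 13 genes, with 11 at least 2-fold lower and 0 higher. Several of these genes are switched on in daughter cells at the end of mitosis and encode enzymes that digest the septum between mother and daughter. After PRY3 and EGT2, the farthest were DSE4, a daughter-specific glucanase, at 48.9 with DTT and 181 in control cells (log2 ratio -1.98), and SUN4, a wall protein of septation, at 422 with DTT and 1382 in control cells (log2 ratio -1.80). The chitinase gene CTS1 read 587 with DTT and 1594 in control cells (log2 ratio -1.53) and ASH1, which encodes the daughter-cell repressor whose mRNA is carried to the bud tip, read 364 with DTT and 1076 in control cells (log2 ratio -1.65). Of the others, DSE1 was within 2-fold at -0.94 and AMN1, which acts in mitotic exit, read 438 with DTT and 393 in control cells (log2 ratio 0.07). With loess scaling the median was -1.09. Calcium signalling had a median of 0.08 over 14 genes. RCN2, a calcineurin regulator, read 391 with DTT and 101 in control cells (log2 ratio 1.86), and PMC1, the vacuolar calcium pump, read 129 with DTT and 40.3 in control cells (log2 ratio 1.59). With CMK2 they were the 3 at least 2-fold higher genes, and CNA1, a catalytic subunit of calcineurin, was the 1 lower, at 25.4 with DTT and 50.2 in control cells (log2 ratio -1.07).

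Sulphur metabolism and thiol defence bear on the reductant itself. Their counts stand beside shares over all genes of 5.63% at least 2-fold higher and 10.6% lower. Sulphate assimilation and methionine synthesis had a median of 0.19 over 27 genes, 6 of them at least 2-fold higher and 2 lower. MET14, the kinase that activates sulphate, read 193 with DTT and 41.2 in control cells (log2 ratio 2.14). SAM2, an S-adenosylmethionine synthetase, read 151 with DTT and 42.0 in control cells (log2 ratio 1.75). MET4, the activator of the pathway, read 117 with DTT and 45.1 in control cells (log2 ratio 1.29), and CYS4, the first enzyme from homocysteine to cysteine, read 392 with DTT and 173 in control cells (log2 ratio 1.10). Lower were CBF1, a DNA-binding partner of Met4, at 58.2 with DTT and 116 in control cells (log2 ratio -1.08), and SAM3, the S-adenosylmethionine permease, at 55.1 with DTT and 118 in control cells (log2 ratio -1.28). Thioredoxin, glutathione and oxidant defence had a median of 0.18 over 29 genes, 5 at least 2-fold higher and 0 lower. The highest was GTT1, a glutathione transferase of the ER, at 241 with DTT and 61.9 in control cells (log2 ratio 1.87). OYE2, an NADPH oxidoreductase, read 915 with DTT and 351 in control cells (log2 ratio 1.29), and HYR1, a thiol peroxidase that senses peroxide, read 194 with DTT and 75.1 in control cells (log2 ratio 1.28). TRR2, the mitochondrial thioredoxin reductase, read 89.8 with DTT and 34.9 in control cells (log2 ratio 1.28), and DOT5, a nuclear thiol peroxidase, read 125 with DTT and 52.5 in control cells (log2 ratio 1.16). GRX4, a monothiol glutaredoxin, was lowest at -0.97.

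Lipid genes differed by branch. Inositol and phospholipid synthesis had a median of 0.30 over 22 genes, 3 at least 2-fold higher and 0 lower. Besides OPI3 these were SCS3, an ER protein of fat storage, at 714 with DTT and 168 in control cells (log2 ratio 2.00), and SCS2, an ER tether that binds the repressor Opi1, at 444 with DTT and 168 in control cells (log2 ratio 1.31). ITR2, an inositol transporter, was lowest at -0.84. Fatty acid synthesis had a median of -0.62, with 4 of 14 genes at least 2-fold lower and 0 higher, or 2 lower with loess scaling. These were the elongase genes ELO1, at 154 with DTT and 388 in control cells (log2 ratio -1.42), and ELO3, at 535 with DTT and 1016 in control cells (log2 ratio -1.01), the activating enzyme gene FAA4, at 168 with DTT and 376 in control cells (log2 ratio -1.26), and ACC1, acetyl-CoA carboxylase, at 426 with DTT and 859 in control cells (log2 ratio -1.10). ACB1, which binds acyl-CoA, was highest at 0.69. Ergosterol synthesis had a median of 0.07 over 27 genes. Of these, 2 were at least 2-fold higher and 3 lower, near the all-gene shares of 5.63% and 10.6%. ERG7, at 155 with DTT and 50.9 in control cells (log2 ratio 1.52), and ERG9, at 194 with DTT and 85.9 in control cells (log2 ratio 1.09), were higher. The late desaturase gene ERG3, at 914 with DTT and 2032 in control cells (log2 ratio -1.24), ERG5, at 133 with DTT and 289 in control cells (log2 ratio -1.21), and HMG1, the reductase that commits carbon to sterols, at 368 with DTT and 768 in control cells (log2 ratio -1.15), were lower. ERG3 was -0.66 with loess scaling. Sphingolipid synthesis had a median of -0.05 over 22 genes, with YSR3, a phosphatase of long-chain bases, at 137 with DTT and 53.2 in control cells (log2 ratio 1.28) and AUR1, which makes inositol phosphorylceramide, at 189.7 with DTT and 371 in control cells (log2 ratio -1.05).

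Respiration and the citric acid cycle parted. The nuclear-encoded respiratory chain and ATP synthase had a median of -0.79, with 10 of 37 genes at least 2-fold lower and 1 higher. With loess scaling the median was -0.68, and 6 genes were lower when centred on the measured genes. After NDE1 the farthest were ATP19, an ATP synthase subunit, at 52.7 with DTT and 149.5 in control cells (log2 ratio -1.59), INH1, which inhibits its hydrolysis, at 53.4 with DTT and 149 in control cells (log2 ratio -1.57), and CYT1, cytochrome c1, at 60.5 with DTT and 149 in control cells (log2 ratio -1.39). The exception was STF2, also ascribed to ATP synthase, at 696 with DTT and 143 in control cells (log2 ratio 2.19). Of the genes of mitochondrial DNA, COX1 and OLI1 were measured, at 679.5 with DTT and 247 in control cells (log2 ratio 1.43) and 542 with DTT and 391 in control cells (log2 ratio 0.38). OLI1 stood at -0.35 without a floor, since further probe sets then count. The citric acid cycle with pyruvate entry had a median of 0.32 over 25 genes, 4 at least 2-fold higher and 2 lower. The shares over all genes were 5.63% higher and 10.6% lower. PYC1, pyruvate carboxylase, read 252 with DTT and 53.6 in control cells (log2 ratio 2.15), LSC2, of succinyl-CoA ligase, read 173 with DTT and 37.3 in control cells (log2 ratio 2.13), FUM1, fumarase, read 426 with DTT and 126 in control cells (log2 ratio 1.67), and LAT1, of pyruvate dehydrogenase, read 585 with DTT and 183 in control cells (log2 ratio 1.59). ACO1, aconitase, at 164 with DTT and 383 in control cells (log2 ratio -1.31), and SDH1, of succinate dehydrogenase, at 56.0 with DTT and 107 in control cells (log2 ratio -1.02), were lower.

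Glycolysis and fermentation had a median of -0.25 over 22 genes, whose sign depended on the scaling, 0.42 with quantile and 0.42 with loess scaling. ENO1, an enolase, read 1609 with DTT and 647 in control cells (log2 ratio 1.23) and ADH2, the alcohol dehydrogenase that glucose represses, read 30.9 with DTT and 62.1 in control cells (log2 ratio -1.10). PGK1, phosphoglycerate kinase, read 3621 with DTT and 2699 in control cells (log2 ratio 0.34), or 1.41 with quantile scaling. ACT1, actin, read 2019 with DTT and 2156 in control cells (log2 ratio -0.18), and its sign turned with quantile scaling (0.47), with loess scaling (0.58) and with centring on the genes. Hexose transporters and glucose sensors had a median of -0.64 over 9 genes. HXT1, the low-affinity transporter of high glucose, read 604 with DTT and 254 in control cells (log2 ratio 1.16), while the high-affinity transporter HXT7 read 144 with DTT and 469 in control cells (log2 ratio -1.80), beside HXT6. Both HXT7 and HXT6 are read by family probe sets, so they may not be separate readings. With plain probe sets only, 0 of 7 genes of the list were at least 2-fold lower. Glycerol, trehalose and glycogen genes had a median of 0.08 over 21 genes. Both glycerol phosphatase genes, GPP2 and GPP1, read 171 with DTT and 59.7 in control cells (log2 ratio 1.43) and 1167 with DTT and 533 in control cells (log2 ratio 1.04), and GPD1, the dehydrogenase before them, read 1051 with DTT and 459 in control cells (log2 ratio 1.11). GDB1, the debranching enzyme of glycogen, was lower at 40.9 with DTT and 122 in control cells (log2 ratio -1.67).

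Amino acid synthesis under Gcn4 had a median of 0.08 over 47 genes, with 5 at least 2-fold higher and 2 lower, or 8 higher when centred on the measured genes. Over all 4124 genes 5.63% were at least 2-fold higher and 10.6% lower. When centred on the measured genes 357 of the 4124 were higher and 226 lower, and with loess scaling 230 were lower. ASN2, asparagine synthetase, read 629 with DTT and 133 in control cells (log2 ratio 2.15), and LEU1, of leucine synthesis, read 426 with DTT and 90.3 in control cells (log2 ratio 2.15). GLN1, glutamine synthetase, read 2033 with DTT and 655 in control cells (log2 ratio 1.55), or 2.06 with loess scaling. HIS7 and BAT1, of histidine synthesis and branched-chain transamination, read 139.8 with DTT and 46.8 in control cells (log2 ratio 1.49) and 284 with DTT and 114 in control cells (log2 ratio 1.22). LEU9, an isopropylmalate synthase, at 59.4 with DTT and 133 in control cells (log2 ratio -1.25), and CPA1, of carbamoyl phosphate synthesis, at 245 with DTT and 463 in control cells (log2 ratio -1.01), were lower. Amino acid permeases had a median of -0.31, with 4 of 16 lower, or 1 when centred on the measured genes. Besides SAM3 these were TAT2, for tryptophan, at 83.8 with DTT and 179 in control cells (log2 ratio -1.18), DIP5, for acidic amino acids, at 195 with DTT and 396 in control cells (log2 ratio -1.11), and PUT4, for proline, at 25.8 with DTT and 49.3 in control cells (log2 ratio -1.02). MUP3, for methionine, was higher, at 86.9 with DTT and 39.6 in control cells (log2 ratio 1.05). Purine synthesis had a median of -0.30 over 19 genes, 1 higher and 5 lower, or 3 lower with loess scaling and 2 when centred on the measured genes. GUA1, GMP synthase, read 343 with DTT and 989 in control cells (log2 ratio -1.61) and AAH1, adenine deaminase, read 61.7 with DTT and 154 in control cells (log2 ratio -1.41). APT1, BAS1 and ADE12 had log2 ratios of -1.10, -1.07 and -1.04, and ADE13, adenylosuccinate lyase, read 520.5 with DTT and 199.5 in control cells (log2 ratio 1.30).

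Metal and phosphate uptake are given beside shares over all genes of 5.63% at least 2-fold higher and 10.6% lower. For iron, copper and zinc the median was -0.13 over 29 genes. Of these, 2 were at least 2-fold higher and 2 lower. TIS11, which degrades mRNAs when iron is short, read 200.1 with DTT and 44.6 in control cells (log2 ratio 2.08), and CTR2, a vacuolar copper transporter, read 372 with DTT and 173 in control cells (log2 ratio 1.02). FET3, the multicopper oxidase of iron uptake, was lower at 374 with DTT and 1320.2 in control cells (log2 ratio -1.91), as was FET4, a low-affinity transporter, at 65.7 with DTT and 167 in control cells (log2 ratio -1.43). The phosphate regulon had a median of -0.48 over 19 genes, 1 at least 2-fold higher and 3 lower. PHO84, the high-affinity phosphate transporter, read 852 with DTT and 2578 in control cells (log2 ratio -1.68), or -1.07 with loess scaling. PHO3, a secreted phosphatase, read 89.3 with DTT and 268 in control cells (log2 ratio -1.68), SPL2, which acts on low-affinity uptake, had a log2 ratio of -1.03, and PHO85, the cyclin-dependent kinase of the pathway, read 245 with DTT and 112 in control cells (log2 ratio 1.03).

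Genes for ribosomes had medians below that of all genes at each stage of ribosome production, and those of the ribosomal proteins depended on how signal level was treated. Small subunit proteins had a median of -0.97, with 17 of 34 genes at least 2-fold lower and 0 higher. Large subunit proteins had a median of -0.86, with 19 of 47 lower and 0 higher. The farthest of the small subunit were RPS1A, at 1859 with DTT and 5297 in control cells (log2 ratio -1.60), RPS21A, at 3512 with DTT and 9874 in control cells (log2 ratio -1.58), RPS21B, at 3972 with DTT and 11106 in control cells (log2 ratio -1.57), and RPS29A, at 1810.5 with DTT and 4842 in control cells (log2 ratio -1.51). After RPL36A, those of the large subunit were RPL21B, at 3079.8 with DTT and 9671 in control cells (log2 ratio -1.74), RPL37A, at 2716 with DTT and 7930.1 in control cells (log2 ratio -1.63), and RPL36B, at 597 with DTT and 1719 in control cells (log2 ratio -1.61). At the other ends RPS25A read 1071 with DTT and 1241 in control cells (log2 ratio 0.05 as the mean over its probe sets). RPL14B read 974 with DTT and 559.8 in control cells (log2 ratio 0.71). Most of these genes lie in the brightest of the 10 bins, where the arrays differ as a whole. With loess scaling the medians were -0.31 for the small and -0.15 for the large subunit, and with quantile scaling -0.34 and -0.25 in the same order. With loess scaling 0 of 34 small subunit genes and 2 of 47 large subunit genes were at least 2-fold lower. Many of these genes are near-identical copies, so a probe set of one may also read the other.

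The medians of the assembly factors of the ribosome moved less under those scalings than the medians of the ribosomal proteins did. Small subunit assembly had a median of -0.86 with 21 of 53 genes at least 2-fold lower and 0 higher. With loess scaling the median was -0.72 with 17 lower, and 13 were lower when centred on the measured genes. LTV1, an export factor, read 23.4 with DTT and 74.0 in control cells (log2 ratio -1.75), IMP4 and MPP10, partners in the U3 particle, read 67.3 with DTT and 204 in control cells (log2 ratio -1.69) and 24.5 with DTT and 74.0 in control cells (log2 ratio -1.68), and ECM16, a helicase, read 50.9 with DTT and 151 in control cells (log2 ratio -1.66). RRP7 was highest at 97.4 with DTT and 48.6 in control cells (log2 ratio 0.91). Large subunit assembly had a median of -0.79 with 20 of 57 lower and 0 higher. With loess scaling it was -0.68 with 12 lower, and 9 were lower when centred on the measured genes. REA1, the giant ATPase that strips assembly factors, read 34.6 with DTT and 104 in control cells (log2 ratio -1.67), SDA1 read 24.5 with DTT and 73.3 in control cells (log2 ratio -1.67), and the factors NOP13 and DRS1 read 82.6 with DTT and 224 in control cells (log2 ratio -1.53) and 31.0 with DTT and 79.7 in control cells (log2 ratio -1.45). NMD3, the export adaptor of the large subunit, was highest at 152 with DTT and 74.2 in control cells (log2 ratio 0.94). RNA polymerases I and III, which make ribosomal RNA and tRNA, had a median of -0.69 with 7 of 32 lower and 0 higher. With loess scaling, when centred on the measured genes and when not centred, 3 were lower. Of all 4124 genes 438 were at least 2-fold lower, and 230, 226 and 320 in those settings in turn. The median of the list minus that of all genes lay between -0.53 and -0.49 under the scalings. After RRN5, the polymerase I subunit genes RPA49 and RPA43 read 152 with DTT and 397 in control cells (log2 ratio -1.48) and 40.5 with DTT and 104 in control cells (log2 ratio -1.45), and RPA135 had a log2 ratio of -1.09. TFC6 was highest at 0.31.

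The factors that work with the finished ribosome differed by group. Initiation factors had a median of -0.38 over 27 genes, and the one past 2-fold was SUI1, the start codon factor eIF1, at 304 with DTT and 611 in control cells (log2 ratio -1.10). PAB1, the poly(A)-binding protein, was highest at 393 with DTT and 268 in control cells (log2 ratio 0.47). Elongation and termination factors had a median of -0.36 over 10 genes. ANB1, the eIF5A isoform of low oxygen, read 51.4 with DTT and 123 in control cells (log2 ratio -1.35), while HYP2, the aerobic isoform, was highest at 3333 with DTT and 2037 in control cells (log2 ratio 0.62), or 1.47 with loess scaling. YEF3, the fungal elongation factor 3, read 1861 with DTT and 3758 in control cells (log2 ratio -1.10), or -0.25 with loess scaling. Aminoacyl-tRNA synthetases had a median of -0.13 and 0 of 22 past 2-fold in either direction, from VAS1 at 0.93 down to ALA1 at -0.93. Chaperones that bind the ribosome had a median of 0.32 over 9 genes. EGD1 and EGD2, the partner subunits of the nascent polypeptide complex, stood apart, at 1597 with DTT and 3680.0 in control cells (log2 ratio -1.29) and 1513 with DTT and 829 in control cells (log2 ratio 0.78). With loess scaling they were -0.47 and 1.28. Mitochondrial ribosomal proteins had a median of -0.08 over 61 genes, 1 of them higher, MRP8, a member by its name, at 378 with DTT and 82.3 in control cells (log2 ratio 2.11), and 1 lower, MRPL49 at 81.9 with DTT and 156 in control cells (log2 ratio -1.02). Transcripts named for regulation by upstream reading frames had a median of -0.40 over 16 genes, with HAP4, the activator of respiration, at 73.5 with DTT and 245 in control cells (log2 ratio -1.83), CLN3, a G1 cyclin, at 283 with DTT and 560.1 in control cells (log2 ratio -1.07), CPA1 as above, and URA1 highest at 0.57.

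The list of cytosolic chaperones, which also holds HSF1 and HSP60, had a median of -0.29 over 27 genes, near that of all genes. HSF1, the heat shock factor, was the 1 gene at least 2-fold higher, at 200.5 with DTT and 60.0 in control cells (log2 ratio 1.65). HSP26, a small heat shock protein, read 34.7 with DTT and 109.5 in control cells (log2 ratio -1.75), SSA1, a cytosolic Hsp70, read 2443 with DTT and 5659.7 in control cells (log2 ratio -1.30), and HSP60, the mitochondrial chaperonin, read 908 with DTT and 1979 in control cells (log2 ratio -1.21). With loess scaling SSA1 was -0.30 and HSP60 -0.64. The proteasome had a median of 0.25 over 36 genes, with RPN10, a ubiquitin receptor, at 458 with DTT and 178 in control cells (log2 ratio 1.28) and UMP1, its assembly chaperone, lowest at -0.86. Autophagy genes had a median of 0.03 over 15 genes, with ATG5 at 185 with DTT and 57.7 in control cells (log2 ratio 1.60) and ATG3 lowest at -0.61. Vacuolar proteases and the vacuolar ATPase had a median of -0.13 over 21 genes, or 0.39 with loess scaling. PRB1 and YHR138C, given above, were the 2 past 2-fold, and VMA7, of the ATPase, was lowest at -0.82.

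Genes of the cell cycle lay below the genes at large. The list of cyclins and their inhibitors, which also holds CDC5, had a median of -0.97. In it 8 of 16 genes were at least 2-fold lower and 0 higher, or 5 lower when centred on the measured genes. CDC5, the polo kinase of mitosis, read 71.4 with DTT and 251 in control cells (log2 ratio -1.90), FAR1, an inhibitor that arrests cells for mating, read 136 with DTT and 412 in control cells (log2 ratio -1.68), CLB2, the main mitotic cyclin, read 25.1 with DTT and 75 in control cells (log2 ratio -1.67), and WHI5, which blocks the G1 to S step, read 36.2 with DTT and 83.3 in control cells (log2 ratio -1.29). PCL1, a G1 cyclin of Pho85, was highest at 0.60. DNA replication and nucleotide reduction had a median of -0.93 with 11 of 31 lower and 0 higher. After RNR1 the farthest were MCM7, of the replicative helicase, at 32.4 with DTT and 115 in control cells (log2 ratio -1.92), POL30, the sliding clamp, at 74.1 with DTT and 260.0 in control cells (log2 ratio -1.90), and POL12, of DNA polymerase alpha, at 26.3 with DTT and 84.1 in control cells (log2 ratio -1.77). PRI1, of primase, was highest at 74.7 with DTT and 40.6 in control cells (log2 ratio 0.79). With loess scaling the medians were -0.86 for cyclins and -0.73 for replication. Of 4 measured histone genes, HTB2, a copy of H2B, read 568 with DTT and 1748 in control cells (log2 ratio -1.71) and HTZ1, the variant H2A.Z, was highest at -0.20.

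Genes specific to mating type a had a median of -1.02 over 7 genes, with members at both ends. After MFA2 the lower genes were STE6, the a-factor exporter, at 59.1 with DTT and 178 in control cells (log2 ratio -1.68), AGA2, the agglutinin subunit, at 35.5 with DTT and 87.4 in control cells (log2 ratio -1.39), and STE2, the receptor for alpha-factor, at 77.9 with DTT and 148 in control cells (log2 ratio -1.02). BAR1, the secreted protease that degrades alpha-factor, was higher at 462 with DTT and 120.1 in control cells (log2 ratio 1.85). MFA1, the second a-factor gene, read 465 with DTT and 570.5 in control cells (log2 ratio -0.29) over a family probe set and another that is not plain. Genes of the pheromone response shared by both mating types had a median of -0.01 over 17 genes. FAR1 was lower, and FUS3, the MAP kinase, had a log2 ratio of 1.01 that did not hold across its probe sets, 0.31 when only probe sets past the 60th percentile counted and -1.32 without a floor.

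Eisosomes, the furrow-forming complexes under the plasma membrane, had a median of -0.84, with 4 of 9 genes at least 2-fold lower and 0 higher. The lower count was 2 with quantile scaling, 1 with loess scaling and 1 when centred on the measured genes. After NCE102 these were LSP1, a core component, at 354 with DTT and 757 in control cells (log2 ratio -1.18), FMP45, of the SUR7 family, at 27.4 with DTT and 56.2 in control cells (log2 ratio -1.12), and SLM2, a target of lipid signalling there, at 34.9 with DTT and 70.0 in control cells (log2 ratio -1.09). PKH1, a kinase of the complex, was highest at 0.14. The COS family had the highest median, 2.22 over 4 genes, with 3 at least 2-fold higher. COS7 read 189 with DTT and 35 in control cells (log2 ratio 2.34) and COS4 342 with DTT and 75.6 in control cells (log2 ratio 2.09), but with COS8 they rest on probe sets of other than the plain kind, and COS7 stood at -1.14 without a floor. COS9, the 1 gene with a plain probe set above both floors, read 61.0 with DTT and 47.5 in control cells (log2 ratio 0.27). Signalling through RAS, cyclic AMP and Snf1 had a median of -0.09 over 26 genes. TOS3, a kinase that activates Snf1, read 297 with DTT and 73.9 in control cells (log2 ratio 1.92), GAL83, a subunit that places Snf1 in the cell, read 140.0 with DTT and 36.7 in control cells (log2 ratio 1.84), and BCY1, the inhibitory subunit of protein kinase A, read 255 with DTT and 86.2 in control cells (log2 ratio 1.48). MSN4, a stress transcription factor, at 24.5 with DTT and 81.6 in control cells (log2 ratio -1.82), and SIP1, another Snf1 subunit, at 35.4 with DTT and 67.0 in control cells (log2 ratio -1.01), were lower. Genes of mRNA decay and P-bodies had a median of -0.33 over 23 genes, with LSM6, of the Lsm ring, at 84.0 with DTT and 296 in control cells (log2 ratio -1.90) and EDC2, an activator of decapping, highest at 0.77. Structural and guide RNAs, which do not enter polysomes, had a median of -0.46 over 10 genes. SNR8 was the 1 past 2-fold, at 114 with DTT and 236 in control cells (log2 ratio -1.13), and SNR4 was highest at 0.61.

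**Figure D4:**
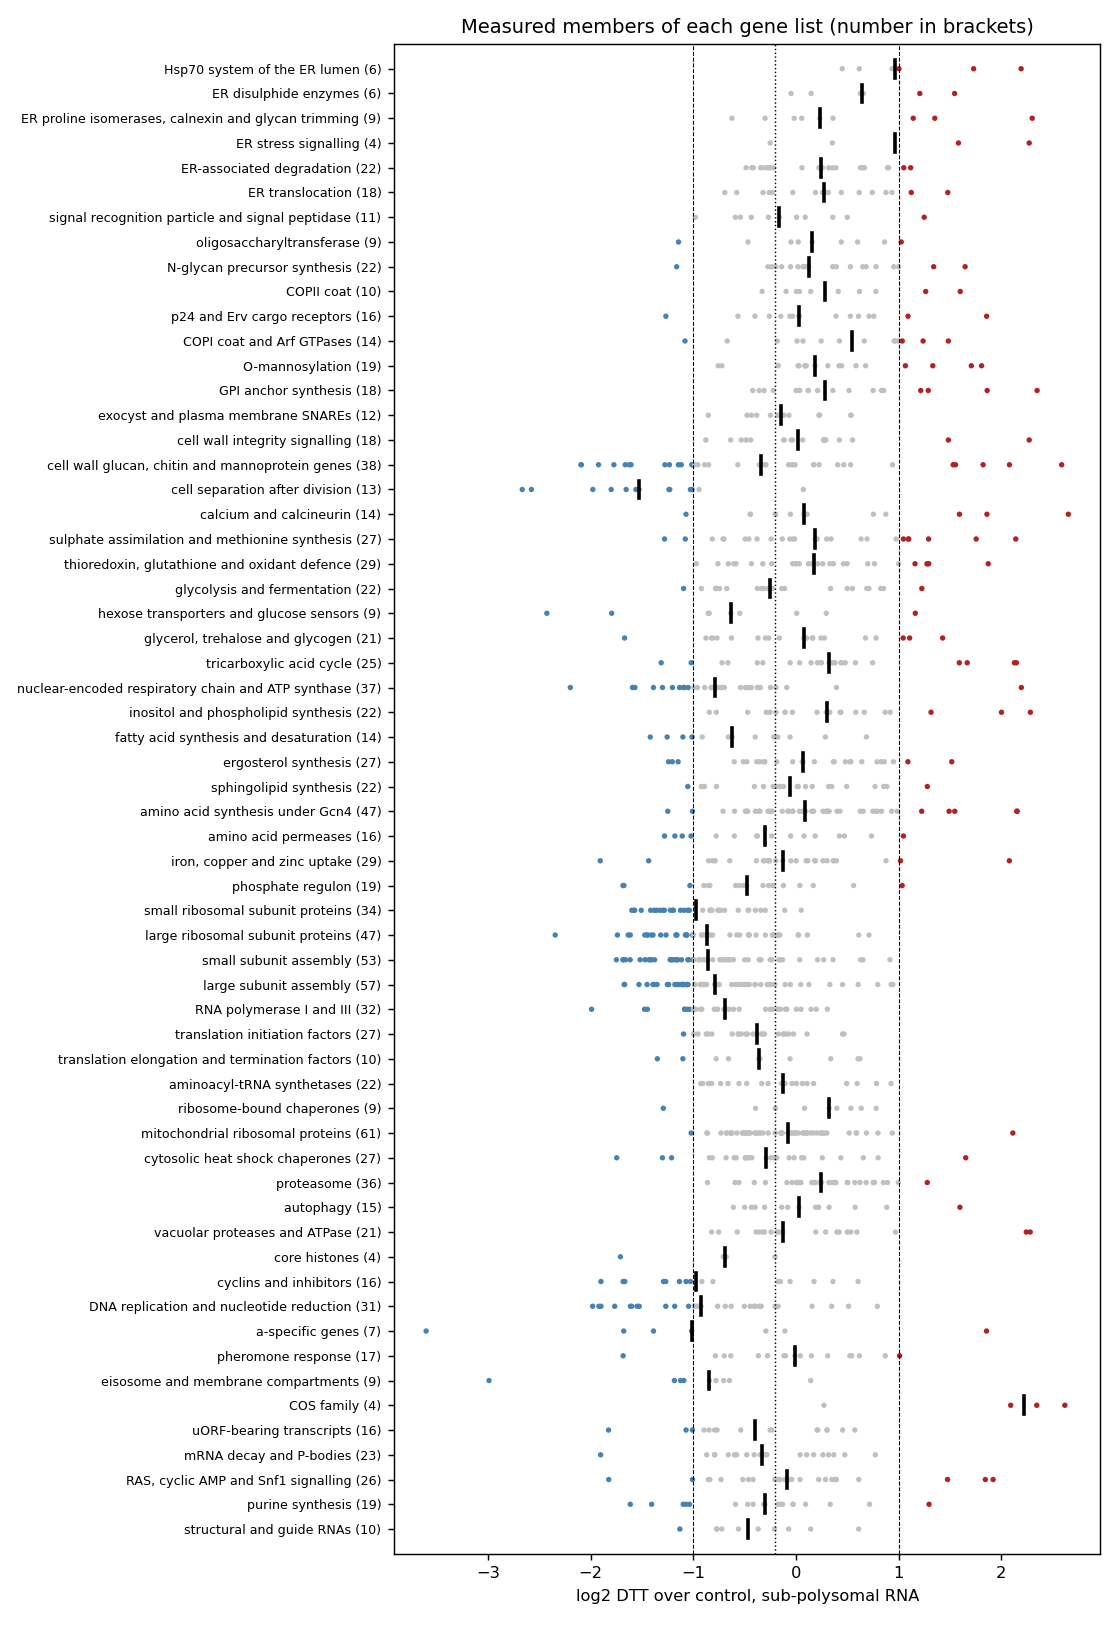
Log2 ratio of DTT to control for every measured member of 60 gene lists (points; number of members in brackets), with the list median as a black bar, dashed lines at 2-fold and a dotted line at the all-gene median of -0.20. Red points are at least 2-fold higher and blue points at least 2-fold lower. ER folding lists lie to the right at the top, and cell separation, ribosome, cyclin and replication lists to the left.

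Some genes were above the floor on 1 array only and have no ratio, 339 with DTT only and 274 in control cells only, while 916 were under it on both. Among genes with 1 probe set, 49 were past the 60th percentile with DTT and under the floor in control cells, and 13 the other way round. These counts start at unlike folds, since the 60th percentile was 56.74 on both arrays while the floors differed. The smallest bound was 1.93-fold among the 49 (YIA6) and 2.70-fold among the 13 (SEN34), so the counts cannot be set against each other. The largest bound was that of MNC1, at 439 with DTT and 23.1 in control cells, at least 14.6-fold higher with DTT. YET2, a yeast relative of the ER sorting protein BAP31, read 239.5 with DTT and 24.5 in control cells, at least 7.99-fold higher. YOR289W, known by its systematic name only, read 196 with DTT and 19.3 in control cells, at least 6.55-fold higher. After MPD1 and SEC6, given above, AVT7, a vacuolar transporter, was at least 4.39-fold higher, SMP1, a transcription factor, at least 4.26-fold, and PUT2, of proline breakdown, at least 4.12-fold. In the other direction HPF1, a mannoprotein of the cell wall, read 19.5 with DTT and 154 in control cells, at least 7.23-fold lower with DTT. TRM12, which modifies tRNA, was at least 3.55-fold lower, TMA23, of the nucleolus, at least 3.38-fold, and IML1, which acts in nutrient signalling, at least 3.34-fold. ATP20, an ATP synthase subunit, was at least 3.30-fold lower. YBL029W, YJL043W and YML119W, known by systematic names only, were at least 3.27-fold, 3.25-fold and 3.23-fold lower.

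**Figure D5:**
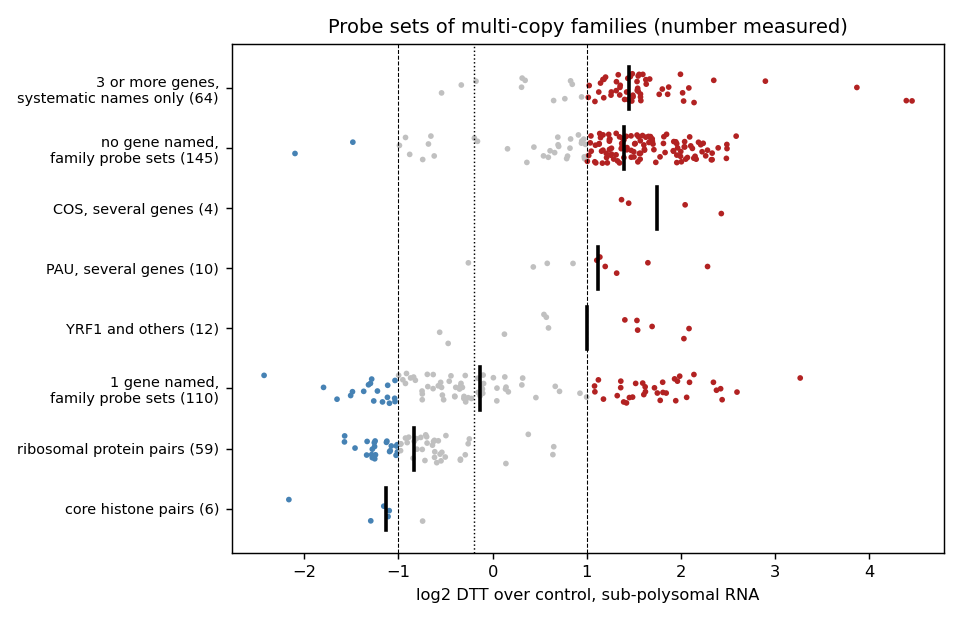
Log2 ratio of DTT to control for measured probe sets of multi-copy families (points; number measured in brackets), with the median of each family as a black bar, dashed lines at 2-fold and a dotted line at the all-gene median of -0.20. Probe sets naming 3 or more genes by systematic name (64) and family probe sets naming no gene (145) have medians of 1.45 and 1.39, ribosomal protein pairs (59) -0.83 and core histone pairs (6) -1.13.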

How the data were processed

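Intensities of 2 Affymetrix YG_S98 yeast arrays were used. Linear intensities were deposited, and the authors had scaled them so that the mean after trimming 2% from each end is about 100 (100.0 on each array), as the values show. How probes were summarised is not stated in the sources at hand, and 0 columns lack a sample. Per the file headers, the run sheets hold the chip type and run settings only.

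Of 9335 probe sets, 60 are controls, 6504 name 1 gene (all matched by gene ID to R64 names), 328 several and 2443 none. Those above the 40th percentile on both arrays (5059 that are not controls) set the centre of each array; 4387 naming 1 gene gave 4124 genes, 136 of them without a plain probe set. Genes were counted past 2-fold, and no p-value was computed. Lists with at least 4 measured genes (60 of 63) were described by their median.

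The members, lists and limits were chosen with earlier results of these data known. The genes named are the 15 highest and 15 lowest above the array medians, each list's members past 2-fold (the 4 farthest where more than 5) and its other end, a fixed set, and the 8 largest bounds each way. ERJ5, PTC2, HRD1, SEC61, CTS1, ASH1 and DSE1 were added after their values were seen. The steps were tested on simulated data that held no trend with signal level, so that test does not bear on the trend seen here. Python 3.11.15, pandas 2.3.3 and statsmodels 0.14.6 (loess, span 0.4) were used.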

Additional observations from a re-analysis of the deposited data

Results flagged for a closer look

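Signals were seen in probe sets that the gene values leave out. Of 461 measured probe sets that name no gene, 134 were at least 2-fold higher with DTT (29.1%) and 58 at least 2-fold lower (12.6%), against 5.63% and 10.6% of the genes. Of 211 measured probe sets that name several genes, 73 were at least 2-fold higher (34.6%) and 36 at least 2-fold lower (17.1%). With 1 array a group these differences were not tested.

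Most of the higher probe sets read multi-copy families. Among the probe sets naming no gene, 145 carry the maker's suffix for a family, and of these 112 were at least 2-fold higher and 2 lower, with a median log2 ratio of 1.39 and median intensities of 259.7 with DTT and 91.8 in control cells. The other 316 had a median of -0.38, with 22 higher and 56 lower. Among the probe sets naming 3 or more genes, all by systematic name, 53 of 64 measured were at least 2-fold higher and 0 lower, with a median of 1.45 and median intensities of 601.2 with DTT and 184 in control cells. The files give these genes no other name. Probe sets shared by subtelomeric gene families ran the same way, with 4 of 4 for COS, 6 of 10 for PAU and 6 of 12 for those that include YRF1 at least 2-fold higher and 0 lower in each, and medians of 1.74, 1.12 and 1.00. Under quantile and loess scaling, without centring and with centring on hybridisation controls, the medians of these 5 families lay between 0.99 and 1.83.

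Other shared probe sets ran the other way. Those of paired ribosomal protein genes had a median of -0.83, with 22 of 59 at least 2-fold lower and 0 higher, or -0.13 with loess scaling. Those of paired core histone genes had a median of -1.13, with 5 of 6 at least 2-fold lower, or -0.65 with loess scaling. Family probe sets that name 1 gene, which do enter the gene values, had a median of -0.14 over 110, with 35 higher and 18 lower.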

How the results depend on the processing

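No paired analysis was possible because each group holds 1 array, and no replicate could be left out. The count of genes at least 2-fold higher, 232, was 634 with no floor, 361 and 129 with the floor at the 20th and 60th percentile, 357 when centred on the measured genes and 88 at a 3-fold limit. The count at least 2-fold lower, 438, was 278 with the floor at the 60th percentile, 226 when centred on the measured genes, 230 with loess scaling and 84 at a 3-fold limit. Both stayed within 1.5 times under the other settings run (no centring, hybridisation controls, quantile scaling, plain probe sets, the highest probe set of a gene, genes above the array medians). The higher genes were 34.6% of the calls, 53.0% with no floor, 46.2% with no centring, 61.2% when centred on the genes, 46.8% with quantile and 58.0% with loess scaling. The all-gene median of -0.20 was 0 when centred on the genes, -0.11 with no centring and with quantile scaling, and -0.02 with loess scaling. Of 60 list medians, 7 moved by more than the probe set SD of 0.46 in at least 1 of 11 settings. ER stress signalling was 0.28 with no floor and -0.18 with the floor at the 20th percentile. Glycolysis was 0.42 with quantile and 0.42 with loess scaling, the small ribosomal subunit -0.34 and -0.31, and the large subunit -0.25 and -0.15 in that order. The vacuolar list was 0.39 with loess scaling, the COS family 0.29 with plain probe sets, and proline isomerases with glycan trimming 0.72 over genes above the array medians. The sign of 11 list medians changed under a scaling, and 56 of 60 kept their side of the all-gene median under all 5 scalings. The exceptions were exocyst, cell wall, glycolysis and aminoacyl-tRNA synthetases. Of the 22 list counts past 2-fold of at least 4 genes, 13 moved by over 1.5 times under a scaling, most often when centred on the measured genes. Of 248 genes named, 33 moved by more than 0.46 in at least 1 setting. COS7 and FUS3, past 2-fold, reversed with no floor, to -1.14 and -1.32, and 8 genes within 2-fold turned sign in at least 1 setting (ACT1, ERV2, GCN4, GPI12, HIS3, HTZ1, OLI1 and RPS25A). The ER folding, COPI, ribosome assembly, respiratory, cyclin, replication and cell separation medians kept their sign in every setting run. Intensities near the floor, 22.6 with DTT and 28.2 in control cells, are the lower limit of what was measured.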
